A study of Mus musculus with 6 samples.

Results

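The tumor necrosis factor (TNF) superfamily was followed in C2C12 cells, a mouse myoblast line, with and without the myogenic transcription factor gene Myod1. Members were taken from the gene table by symbol: every symbol starting with Tnfsf or Tnfrsf, together with Tnf, Lta, Ltb, Ltbr, Fas, Fasl, Ngfr, Cd40, Cd27 and Eda2r. This gave 43 of the 28892 genes listed, of which 15 encode ligands and 26 encode receptors, while Tnfsfm13 and Tnfsf13os are other entries that overlap the genes of the ligands TWEAK and APRIL. Cd40lg and Cd70 also belong to the family and were not analysed here. RNA was sequenced from C2C12 WT cells and C2C12 Myod1-/- cells, with 3 libraries for each genotype. The cells of both genotypes had been kept for 6 days in Ndiff227, a medium without serum. C2C12 Myod1-/- cells were 1 clone, obtained with Cas9 and a guide RNA delivered by lentivirus and puromycin selection, and carried a homozygous deletion in the first exon of Myod1. Per the study, WT cells formed myotubes and the clone grew as floating spheres. Nothing in the labels says that the 3 libraries of a genotype came from separate cultures, so that p-values measure the spread between these libraries only.

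Ligands of the TNF superfamily are mostly trimers anchored in the cell membrane, and proteases can release several of them as soluble proteins. Receptors with a death domain can recruit FADD and caspase-8 or, as for TNFR1, the adaptor TRADD. Other members bind TRAF adaptors directly, which lead to NF-kB and to stress kinases, and decoy receptors bind ligand without passing on a full signal. In skeletal muscle, TNF and TWEAK, the ligand of Fn14, are known for their part in wasting and in the regulation of myoblasts.

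The promoters of Tnf and Tnfrsf9 are shown because these genes gave the largest rises of a tested ligand and of a tested receptor. The sequences are the RefSeq windows on GRCm38.p6 from 250 bases before to 50 bases after an annotated start, and capitals mark matches to 5 searched motifs.
Tnf, chr17:35201958-35202257, - strand: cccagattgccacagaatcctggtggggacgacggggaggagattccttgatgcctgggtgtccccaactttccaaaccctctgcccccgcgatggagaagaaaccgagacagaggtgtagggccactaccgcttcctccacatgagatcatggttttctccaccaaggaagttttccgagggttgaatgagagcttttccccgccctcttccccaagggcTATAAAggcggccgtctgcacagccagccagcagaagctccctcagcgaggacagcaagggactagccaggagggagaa
Tnfrsf9, chr4:150927749-150928048, + strand: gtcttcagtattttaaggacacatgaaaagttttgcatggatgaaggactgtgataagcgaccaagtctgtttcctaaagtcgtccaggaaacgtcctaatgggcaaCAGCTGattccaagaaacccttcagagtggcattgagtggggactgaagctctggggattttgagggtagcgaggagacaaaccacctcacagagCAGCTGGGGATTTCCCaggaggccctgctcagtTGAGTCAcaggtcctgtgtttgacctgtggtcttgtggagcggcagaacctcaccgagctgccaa
In the Tnf window the capitals are a TATAAA box whose first base lies 29 bases before the start. Tnfrsf9 has another RefSeq window, chr4:150919905-150920204, which is not printed. It held none of the 5 motifs, and no listed transcript starts inside it. The start used for the printed Tnfrsf9 window is that of its transcripts ENSMUST00000116257 and ENSMUST00000146133. In this window the capitals mark, from left to right, CAGCTG, an E-box of the kind that MYOD1 binds, at -143, a second CAGCTG at -48 that runs into 2 overlapping kB motifs at -43 and -42, the motif bound by NF-kB, and TGANTCA, the AP-1 motif, at -15.

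Tnfrsf25, which encodes DR3, the death domain receptor of TL1A, is shown with its pair of annotated starts because the transcripts from the first and from the second start differed in opposite directions between the genotypes, as given further on. The starts lie 409 bases apart, and here the single capital marks the first transcribed base.
Tnfrsf25 first start, chr4:152115684-152115983, + strand: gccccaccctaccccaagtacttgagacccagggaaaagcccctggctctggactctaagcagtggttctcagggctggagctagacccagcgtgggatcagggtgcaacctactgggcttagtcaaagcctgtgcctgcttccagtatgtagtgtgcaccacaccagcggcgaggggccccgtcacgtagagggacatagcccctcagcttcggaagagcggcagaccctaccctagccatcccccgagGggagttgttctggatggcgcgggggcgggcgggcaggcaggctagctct
Tnfrsf25 second start, chr4:152116093-152116392, + strand: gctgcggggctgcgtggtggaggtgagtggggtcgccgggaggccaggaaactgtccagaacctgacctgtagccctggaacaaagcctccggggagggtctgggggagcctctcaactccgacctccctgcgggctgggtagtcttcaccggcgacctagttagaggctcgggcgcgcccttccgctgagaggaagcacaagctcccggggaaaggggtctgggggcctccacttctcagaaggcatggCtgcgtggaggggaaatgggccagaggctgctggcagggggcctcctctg
Neither of these windows held any of the 5 motifs.

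The motifs were searched on both strands in 32851 windows of 300 bases, and the kB motif was found in 4.51% of them, the core of the interferon-stimulated response element (2 copies of GAAA with 2 bases between them) in 3.44%, CAGCTG in 16.3%, TGANTCA in 7.81% and TATAAA in 13.6%. A window was found for 34 of the 43 members. Among the 10 members with a window that rose in C2C12 Myod1-/- cells, 1 held the kB motif (Tnfrsf9), 1 held the interferon-stimulated element (Tnfrsf14), 2 held CAGCTG (Tnfrsf9 and Tnfrsf23), 2 held TGANTCA (Tnfrsf9 and Fas) and 2 held TATAAA (Tnf and Tnfrsf23). A match in these letters is a description of the sequence and not a site of binding.

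Levels are FPKM, fragments scaled by gene length and by how many fragments of the library were mapped. A gene was tested where its mean over the 6 libraries was at least 0.5 FPKM, which left 14045 genes and 22 of the 43 members. The test was limma on log2(FPKM + 0.1), with Benjamini-Hochberg adjusted p over all genes tested, and rose and fell are used for an adjusted p under 0.05. Of the 22 members tested, 13 rose and 4 fell in C2C12 Myod1-/- cells and 5 did not pass. Over all genes tested, 27.9% rose, 33.3% fell and 61.1% did either. The median log2 fold change was 0.44 over the members and -0.05 over all genes. The study called differentially expressed genes (DEGs) by an absolute log2 fold change of 1 or more with p, before adjustment, up to 0.05. By this rule 9 members were higher and 1 was lower, where 8.67% of all genes were higher, 11.7% were lower and 20.3% were either. In 13 members every C2C12 Myod1-/- library lay above every WT library and in 6 the reverse held, against 31.4% and 36.5% of all genes, or 67.9% in either direction. The filter acts on all of these counts, of members that rose or fell, of DEGs and of libraries that did not overlap, since Tnf, Tnfsf10 and Tnfrsf11b passed it through 1 genotype only and so had to differ, and Tnfrsf11b is the only DEG that was lower. The counts and the median are therefore given as a description, beside those of all genes. In RNA from bulk cells, fewer cells that express a gene and less RNA per cell cannot be told apart.

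**Figure D1:**
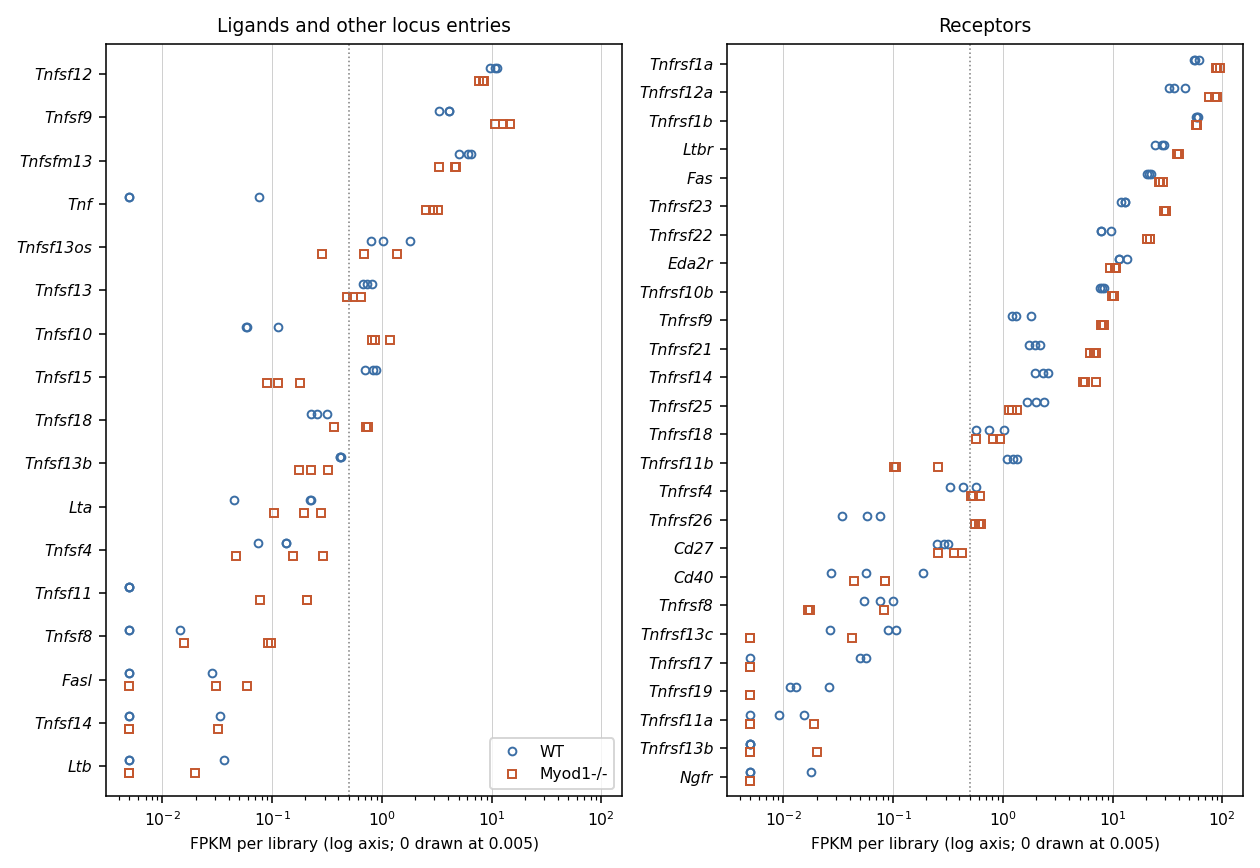
FPKM of the 43 members in each library on a log axis, ligands and other entries of the locus at left and receptors at right, with circles for the 3 WT libraries, squares for the 3 Myod1-/- libraries and a dotted line at 0.5 FPKM. Receptors reach far higher levels than ligands, and Tnf, Tnfsf10, Tnfsf15, Tnfrsf11b and Tnfrsf26 have 1 genotype on each side of the line.

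Libraries were checked before the members were compared. Myod1 had 17.3, 25.8 and 27.7 FPKM in WT and 0.0614, 0 and 0 FPKM in the clone, as the labels say. All 8 skeletal muscle markers fell, and their summed level was 2935 to 3182 FPKM in WT and 14.4 to 15.1 FPKM in C2C12 Myod1-/- libraries. The largest log2 fold changes among them were -13.08 for Acta1, -11.14 for Myh3 and -10.99 for Mylpf, and Des, one of the 3 highest, had -4.38. WT cells thus carried the markers of differentiated muscle and the clone little of them, and all comparisons below are between these 2 states. Of 13 leukocyte markers analysed, 6 stayed under 0.1 FPKM in every library and Ptprc, which encodes the pan-leukocyte antigen CD45, never passed 0.0218 FPKM. Only Cd68 and Lyz2 among them were tested. Cd68 rose, with a log2 fold change of 2.09, and Lyz2 fell, with -0.55, and without both the summed level of these markers was 0.754 to 0.913 FPKM in WT and 0.730 to 0.917 FPKM in C2C12 Myod1-/- libraries. None of the 5 endothelial and 3 epithelial markers analysed reached the filter. The mitochondrial share of FPKM was 7.32% to 8.49% in WT and 5.07% to 5.25% in C2C12 Myod1-/- libraries, and its part in the results was not tested. By the spacing of the lowest values, the first WT library was the shallowest and no other was more than 1.13 times as deep.

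Ligands were few and low in WT cells. Their 15 genes summed to 15.7 to 18.0 FPKM in WT and 25.5 to 28.0 FPKM in C2C12 Myod1-/- libraries. Of the 5 tested, Tnf, Tnfsf10 and Tnfsf9 rose, Tnfsf12 fell and Tnfsf13 did not pass. Of all genes tested, 27.9% rose and 33.3% fell. Tnf and Tnfsf10 passed the filter through the clone only and so had to differ, and the ligand count is a description only.

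Tnf encodes TNF itself, the ligand of TNFR1 and TNFR2, and lies on chromosome 17 from 35199381 to 35202007. In WT cells it was listed at 0.0755, 0 and 0 FPKM. The clone gave 2.55, 2.92 and 3.23 FPKM, with a mean of 2.90 ± 0.342 (SD, n = 3). The groups were far apart, with no WT library above 0.0755 FPKM. Tnf passed the filter through the clone only and so had to differ. The log2 fold change on the log2(FPKM + 0.1) scale was 4.63 (SE 0.272, adjusted p = 1.68e-05). Since 2 WT libraries were listed at 0, its size follows the constant added, and it was 7.14 with 0.01 and 1.92 with 1 added. Lta, its neighbour 1157 bases away and the gene of lymphotoxin alpha, stayed at 0.0448 to 0.227 FPKM in WT and 0.104 to 0.279 FPKM in C2C12 Myod1-/- cells, where the groups overlapped.

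Tnfsf10 encodes TRAIL, a ligand that can trigger apoptosis through death receptors. It rose from 0.0588, 0.0580 and 0.114 FPKM in WT cells to 0.806, 1.18 and 0.868 FPKM in C2C12 Myod1-/- cells (log2 fold change 2.57, SE 0.245, adjusted p = 0.000159). The fold change was 3.51 with 0.01 and 0.85 with 1 added. All libraries of the clone lay above all WT libraries, though at a level near 1 FPKM. Without any 1 of the C2C12 Myod1-/- libraries its mean fell under 0.5 FPKM and it was not tested. Like Tnf, it passed the filter through the clone only and so had to differ.

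Tnfsf9, the gene of the 4-1BB ligand, a costimulatory molecule for T cells, was the highest ligand in C2C12 Myod1-/- cells. Its levels were 4.08, 4.10 and 3.31 FPKM in WT and 14.6, 10.7 and 12.6 FPKM in C2C12 Myod1-/- libraries (log2 fold change 1.69, SE 0.138, adjusted p = 7.45e-05). In WT cells the highest ligand was Tnfsf12, which encodes TWEAK, with 10.7, 11.3 and 9.66 FPKM. It fell to 7.63, 8.27 and 8.45 FPKM (log2 fold change -0.37, SE 0.0768, adjusted p = 0.00579). The first place among the ligands thus passed from Tnfsf12 to Tnfsf9, with no overlap between the 2 genes in either genotype.

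Tnfsf13 encodes APRIL, a ligand of B-cell receptors, and is the next gene to Tnfsf12 on chromosome 11. It was listed at 0.737, 0.821 and 0.667 FPKM in WT and 0.541, 0.639 and 0.476 FPKM in C2C12 Myod1-/- cells (log2 fold change -0.37, 95% interval -0.78 to 0.03, adjusted p = 0.0957). Tnfsfm13, a readthrough entry spanning both genes, was at 5.08, 6.5 and 6.08 FPKM in WT and 4.74, 3.31 and 4.64 FPKM in C2C12 Myod1-/- cells and fell by 0.48 on the log2 scale (adjusted p = 0.0417). That call did not last: it was lost without WT replicate 2 (adjusted p = 0.121), WT replicate 3 (0.108), Myod1-/- replicate 2 (0.0743) or Myod1-/- replicate 3 (0.0512), and under 5 other settings. Tnfsf13os, an entry on the opposite strand, was at 1.03, 1.82 and 0.80 FPKM in WT and 1.37, 0.283 and 0.689 FPKM in C2C12 Myod1-/- cells and did not pass (log2 fold change -0.71, adjusted p = 0.281). Tnfsfm13 and Tnfsf13os each overlap both Tnfsf12 and Tnfsf13, which do not overlap each other. Neither how reads were divided among these entries nor the use of strand is stated, so that each of their levels is uncertain.

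Another 10 ligands stayed under the filter. Tnfsf15 encodes TL1A, the ligand of DR3, and was listed at 0.823, 0.698 and 0.885 FPKM in WT but 0.179, 0.0893 and 0.112 FPKM in C2C12 Myod1-/- libraries. Tnfsf18, the GITR ligand, was at 0.225 to 0.318 FPKM in WT and 0.363 to 0.747 FPKM in C2C12 Myod1-/- libraries. Tnfsf11, which encodes the osteoclast factor RANKL, was listed at 0 in all WT libraries. In the clone it was listed at 0.0767, 0.207 and 0.206 FPKM. In a fit with no filter, where 14.8% of 28892 genes rose and 18.4% fell, Tnfsf15 fell (log2 fold change -2.01, adjusted p = 0.000906) and Tnfsf11 rose (adjusted p = 0.00713). Tnfsf18 did not pass there (adjusted p = 0.0616), nor did Tnfsf13b, the gene of the B-cell factor BAFF, at 0.411 to 0.421 FPKM in WT and 0.174 to 0.322 FPKM in C2C12 Myod1-/- libraries (adjusted p = 0.0924). Tnfsf4, the OX40 ligand, was at 0.0741 to 0.134 FPKM in WT and 0.0470 to 0.292 FPKM in C2C12 Myod1-/- libraries, with overlap. Fasl, Ltb, Tnfsf8 and Tnfsf14, the genes of Fas ligand, lymphotoxin beta, CD30 ligand and LIGHT, were under 0.1 FPKM in every library.

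**Figure D2:**
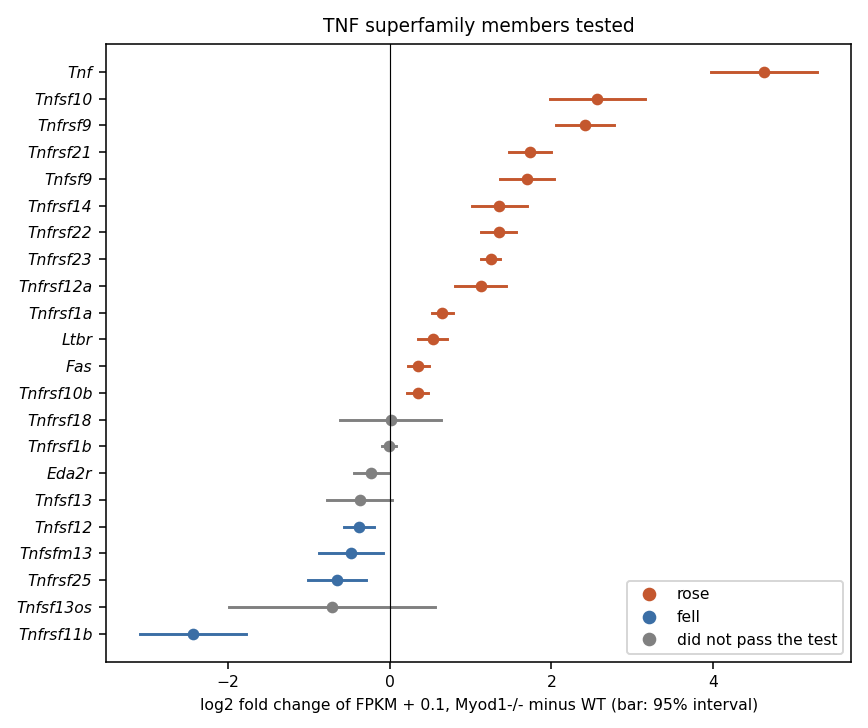
Log2 fold change of FPKM + 0.1, C2C12 Myod1-/- minus WT, for the 22 members tested, with points for the estimate and bars for its 95% interval. Tnf stands apart at 4.63 and Tnfrsf11b at -2.43, and most receptors lie between 0 and 2.

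Receptors held most of the summed FPKM of the family. The 26 receptor genes summed to 248.9 to 266.6 FPKM in WT and 386.3 to 408.6 FPKM in C2C12 Myod1-/- libraries, with no overlap. In WT cells the order of mean gene levels was Tnfrsf1b, Tnfrsf1a, Tnfrsf12a, Ltbr and Fas, and the libraries of the first pair overlapped. By main transcript, divided by transcript length, that pair was reversed. ENSMUST00000032491 of Tnfrsf1a was at 65.7, 72.4 and 67.1 FPKM in WT. ENSMUST00000030336 of Tnfrsf1b was at 59.7, 57.2 and 58.3 FPKM, so which of the pair came first in WT is uncertain. In C2C12 Myod1-/- cells the order of mean gene levels was Tnfrsf1a, Tnfrsf12a, Tnfrsf1b, Ltbr and Tnfrsf23, and again the libraries of the first pair overlapped. Of 15 receptors tested, 10 rose and 2 fell, beside 27.9% and 33.3% of all genes tested. The same shares stand beside the counts of the receptor classes below.

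Death domain receptors came first by role. Of 6 genes, 5 were tested, and Tnfrsf1a, Fas, Tnfrsf10b and Tnfrsf21 rose while Tnfrsf25 fell. Tnfrsf1a, which encodes TNFR1, the receptor that binds soluble TNF in most tissues, was at 55.5, 60.7 and 56.4 FPKM in WT and 89.3, 87.4 and 94.7 FPKM in C2C12 Myod1-/- cells (log2 fold change 0.65, SE 0.0527, adjusted p = 7.19e-05). It was already high in WT cells, and the groups did not overlap. Fas, the receptor of Fas ligand, rose from 20.6, 22.3 and 21.7 to 26.6, 27.1 and 28.8 FPKM (log2 fold change 0.35, adjusted p = 0.00134). Tnfrsf10b, the mouse death receptor of TRAIL, rose from 8.28, 7.73 and 7.95 to 10.4, 10.2 and 9.89 FPKM (log2 fold change 0.34, adjusted p = 0.00147).

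Tnfrsf21 encodes DR6, a receptor known from neurons and lymphocytes, and showed the largest rise of this class. Its levels were 2.19, 1.71 and 1.95 FPKM in WT and 7.12, 6.26 and 6.71 FPKM in C2C12 Myod1-/- libraries (log2 fold change 1.73, SE 0.107, adjusted p = 2.1e-05). Ngfr, the gene of the p75 neurotrophin receptor, was under 0.1 FPKM in every library. Among 4 tested genes that the symbol rule does not take in, relatives of the family or partners of p75, 3 fell, where 33.3% of all genes fell. They were Sort1, which encodes sortilin, a partner of p75 (log2 fold change -3.17, adjusted p = 1.37e-05), Bdnf, the gene of a neurotrophin (-0.54), and Relt, a receptor related to TROY (-0.30). Rell1, a relative of Relt and the highest of them, did not pass, with a log2 fold change of -0.10 (adjusted p = 0.269).

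At the gene level Tnfrsf25 fell from 1.66, 2.36 and 2.01 FPKM in WT to 1.14, 1.22 and 1.35 FPKM in C2C12 Myod1-/- cells (log2 fold change -0.65, SE 0.15, adjusted p = 0.00946). The transcript table, which is described here with no test, held 4 of its transcripts. Transcript FPKM are divided by the length of the transcript and are not on the scale of the gene values. ENSMUST00000025706, with 10 exons and the first start printed above, went from 1.14, 1.83 and 2.05 FPKM to 0.110, 0.311 and 0.497 FPKM. ENSMUST00000035275, with 7 exons and the second start, went the other way, from 0.529, 0.419 and 0.196 FPKM to 1.15, 1.08 and 0.942 FPKM. As a share of the summed transcripts, the first start held 37.3% to 60.0% in WT and 5.30% to 20.8% in C2C12 Myod1-/- libraries, and the second start 5.72% to 17.3% and 39.3% to 55.3%. Neither pair of ranges overlapped, but the gene is shown because of this difference, so the lack of overlap adds no support. How often the shares of other transcripts do not overlap was not counted. ENSMUST00000153619, with 3 exons and a start inside the gene, held 34.3% to 50.3% in WT and 26.8% to 39.9% in C2C12 Myod1-/- libraries. It was the highest of the 4 in WT replicates 1 and 2 and in Myod1-/- replicate 3. A fragment that fits several transcripts is divided among them by estimation, so these shares are less certain than the level of the gene, and each rests on about 1 FPKM.

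**Figure D3:**
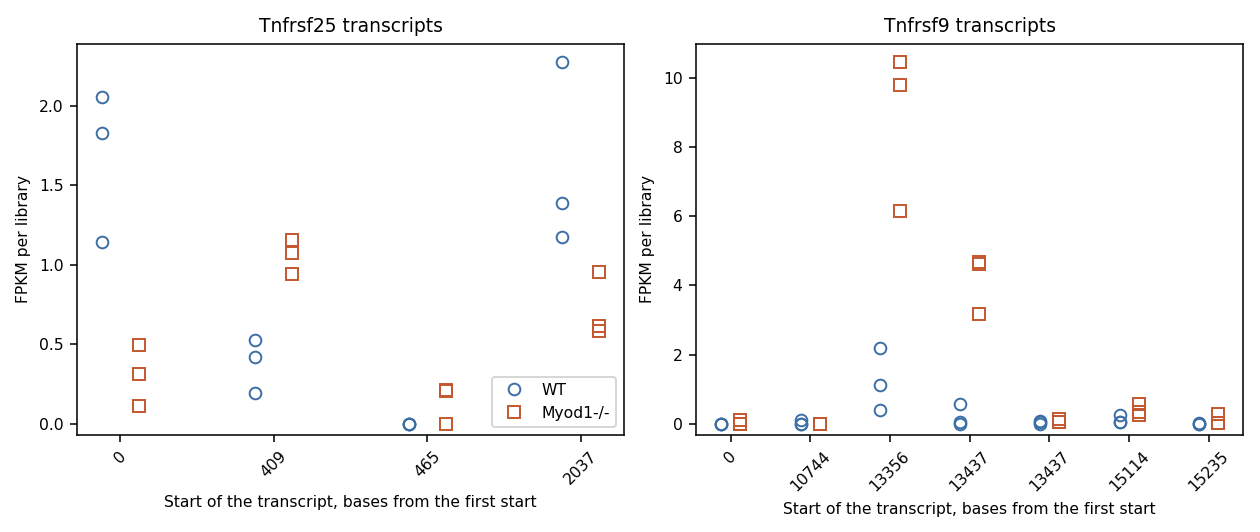
FPKM of each listed transcript of Tnfrsf25 (4, left) and Tnfrsf9 (7, right) in each library, ordered by the distance of its start in bases from the first start, with circles for the 3 WT and squares for the 3 Myod1-/- libraries. The Tnfrsf25 transcript at the first start is higher in WT and the one 409 bases on is higher in Myod1-/- libraries, whereas Tnfrsf9 rises mainly in 2 transcripts.

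Receptors that bind TRAF adaptors without a death domain numbered 16, of which 7 were tested, 4 rose and none fell. Tnfrsf9 encodes 4-1BB, the receptor of the ligand from Tnfsf9, and lies on chromosome 4 from 150914562 to 150946102. It rose from 1.22, 1.82 and 1.31 FPKM in WT to 8.01, 7.82 and 8.37 FPKM in C2C12 Myod1-/- cells (log2 fold change 2.42, SE 0.147, adjusted p = 1.93e-05). This was the largest rise of a receptor tested, and its ligand Tnfsf9 rose too. Of its 7 listed transcripts, 3 start inside the printed window with the kB and CAGCTG matches. They summed to 0.474, 2.81 and 1.17 FPKM in WT and 9.43, 14.4 and 15.2 FPKM in C2C12 Myod1-/- libraries, which was 58.1% to 97.7% and 93.6% to 97.5% of all its transcripts. The lowest share belonged to WT replicate 1. The highest of the 3 in the clone, ENSMUST00000139826, held 60.9% to 66.4% there and 47.0% to 93.4% in WT. It starts at 150927918, before the marked start at 150927999. The kB, TGANTCA and nearer CAGCTG matches thus lie after its own start, and only the farther CAGCTG lies before it.

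Tnfrsf12a encodes Fn14, the receptor of TWEAK, which is induced in injured muscle. It was at 32.6, 45.7 and 36.6 FPKM in WT and 85.2, 75.4 and 88.6 FPKM in C2C12 Myod1-/- cells (log2 fold change 1.13, SE 0.130, adjusted p = 0.000406). Receptor and ligand moved in opposite directions, since Tnfsf12 fell. Tnfrsf14, the gene of HVEM, which binds LIGHT and lymphotoxin alpha, rose from 2.32, 2.56 and 1.96 to 5.37, 6.99 and 5.63 FPKM (log2 fold change 1.36, SE 0.139, adjusted p = 0.000229). Ltbr, the lymphotoxin beta receptor, which acts through the noncanonical NF-kB route, rose from 24.5, 29.7 and 28.3 to 38.9, 40.0 and 39.9 FPKM (log2 fold change 0.53, SE 0.0753, adjusted p = 0.00107). Its main transcript, ENSMUST00000032489, held 91.2% to 95.2% of its transcripts. That transcript was at 23.6, 32.1 and 23.3 FPKM in WT and 29.6, 24.3 and 32.2 FPKM in C2C12 Myod1-/- libraries. These values overlapped, so the rise rests on the gene level. LIGHT and lymphotoxin beta, the ligands of Ltbr, were at or near 0 in both genotypes.

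The other TNF receptor gave the narrowest comparison of the family. Tnfrsf1b, which encodes TNFR2, was at 60.5, 57.8 and 58.6 FPKM in WT and 58.4, 58.1 and 58.7 FPKM in C2C12 Myod1-/- cells. The groups overlapped, and the log2 fold change was -0.01 with a 95% interval of -0.10 to 0.07 (adjusted p = 0.76). The interval does not cover the choice of scaling. With median scaling the log2 fold change was 0.10 (adjusted p = 0.0786) and with quantile normalization -0.03 (adjusted p = 0.682). Eda2r, the gene of XEDAR, a receptor of ectodysplasin A2, was at 13.4, 11.3 and 11.4 FPKM in WT and 9.53, 10.7 and 10.5 FPKM in C2C12 Myod1-/- cells. Its libraries did not overlap, yet it missed the threshold (log2 fold change -0.23, 95% interval -0.44 to -0.02, adjusted p = 0.0564). Its longest transcript, ENSMUST00000037353, had a mean of 13.0 FPKM in WT and 9.63 FPKM in C2C12 Myod1-/- cells, while ENSMUST00000126283 had 3.78 and 5.99 FPKM. As in Tnfrsf25, the shares did not overlap. The longest transcript held 71.2% to 75.2% in WT and 57.9% to 60.0% in C2C12 Myod1-/- libraries, and ENSMUST00000126283 held 19.5% to 23.5% and 35.6% to 38.0%. Tnfrsf18, the gene of the T-cell receptor GITR, was at 1.02, 0.741 and 0.564 FPKM in WT and 0.572, 0.813 and 0.946 FPKM in C2C12 Myod1-/- cells, with overlap and a wide 95% interval of -0.61 to 0.64 (log2 fold change 0.01, adjusted p = 0.968).

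Decoy receptors numbered 3, and all were tested. Tnfrsf11b encodes osteoprotegerin, a secreted decoy that binds RANKL and TRAIL. It fell from 1.36, 1.08 and 1.24 FPKM in WT to 0.101, 0.106 and 0.256 FPKM in C2C12 Myod1-/- cells (log2 fold change -2.43, SE 0.271, adjusted p = 0.000336). The fold change was -3.03 with 0.01 and -0.95 with 1 added. With 1 added it was no longer a DEG. Of its 2 ligand genes, Tnfsf10 rose, and Tnfsf11, under the filter, rose in the fit with no filter. Tnfrsf11b passed the filter through WT only and Tnfsf10 through the clone only, so both had to differ. Tnfsf11 was listed at 0 in every WT library and at no more than 0.207 FPKM in the clone. These 3 calls are therefore a description only.

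Tnfrsf22 and Tnfrsf23 encode mouse decoy receptors of TRAIL and lie next to each other on chromosome 7, 16147 bases apart. Tnfrsf22 rose from 9.59, 7.81 and 7.90 to 20.6, 22.1 and 21.8 FPKM (log2 fold change 1.35, SE 0.0888, adjusted p = 2.81e-05). Tnfrsf23 rose from 13.0, 12 and 13.1 to 29.6, 30.7 and 30.5 FPKM (log2 fold change 1.25, SE 0.0505, adjusted p = 3.3e-06). They changed by nearly the same factor. By gene level Tnfrsf23 stood above Tnfrsf10b, which signals, in every library of both genotypes. Tnfrsf22 did so in 2 of the 3 WT and all C2C12 Myod1-/- libraries. By transcripts the order did not hold in every WT library. ENSMUST00000022663, the main transcript of Tnfrsf10b, was at 13.3, 12.6 and 13.2 FPKM in WT. ENSMUST00000152703, the highest of Tnfrsf23 in WT, was at 15.3, 3.72 and 8.01 FPKM. The order in WT is thus uncertain. Of the 50-base stretches of the Tnfrsf22 and Tnfrsf23 transcripts, 719 occur in both, which is 17.3% of those of Tnfrsf22 and 18.0% of those of Tnfrsf23. Reads from these stretches could have been counted for either. The transcripts of this pair were also divided unevenly among replicates. The Tnfrsf22 transcript of 1 exon, ENSMUST00000171066, was listed at 0.00866, 8.50 and 8.12 FPKM in WT and 19.9, 0.174 and 0.248 FPKM in C2C12 Myod1-/- libraries. Their changes are therefore given by gene level only.

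Tnfrsf26 lies 6083 bases from Tnfrsf22, shares no 50-base stretch with the pair, and encodes a related mouse receptor. It was under the filter, at 0.0577, 0.0759 and 0.0339 FPKM in WT and 0.555, 0.608 and 0.636 FPKM in C2C12 Myod1-/- libraries, and rose in the fit with no filter (log2 fold change 2.17, adjusted p = 0.000365). All 3 genes of this cluster were higher in every library of the clone, as were 31.4% of all genes tested. Since Tnfrsf22 and Tnfrsf23 share sequence, their levels are not fully separate. Tnfrsf4, which encodes OX40, lay just outside the filter with 0.567, 0.436 and 0.330 FPKM in WT and 0.534, 0.514 and 0.613 FPKM in C2C12 Myod1-/- libraries. Cd27 ranged from 0.252 to 0.421 FPKM, Cd40 from 0.0273 to 0.188 FPKM and Tnfrsf13c, the BAFF receptor, from 0 to 0.106 FPKM over the 6 libraries. None of these lymphocyte receptors passed without the filter (adjusted p = 0.437 for Tnfrsf4, 0.58 for Cd27, 0.884 for Cd40 and 0.128 for Tnfrsf13c). The remaining 6 receptors, Ngfr, Tnfrsf8, Tnfrsf11a, Tnfrsf13b, Tnfrsf17 and Tnfrsf19, were under 0.1 FPKM in every library, among them RANK and TROY.

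Genes that act below the receptors were taken from 5 lists by role. Of 40 genes, 37 were tested, 21 rose and 5 fell, and the median log2 fold change was 0.45, beside 27.9%, 33.3% and -0.05 over all genes. Among TRAF and death domain adaptors, 4 of 8 rose and 1 fell. Traf5 had the largest rise (log2 fold change 1.14, adjusted p = 2.92e-05), Ripk1, the kinase at the branch between survival and death, had 0.48 and Traf2 had 0.31, whereas Traf4, the highest of them, fell by 0.63. Traf3, an inhibitor of the noncanonical route, was at 8.69, 5.44 and 3.56 FPKM in WT and 5.09, 14.9 and 14.1 FPKM in C2C12 Myod1-/- libraries and did not pass (adjusted p = 0.169). Of the ubiquitin enzymes of the receptor complex and their partners, 3 of 9 rose and 2 fell. Tnip1, a partner of the deubiquitinase A20, rose from 27.5, 26.8 and 25.6 to 72.2, 74.7 and 66.5 FPKM (log2 fold change 1.41, adjusted p = 3.25e-06), Rnf31, the ligase HOIP, had 1.07 and Tnfaip3, the gene of A20 itself, had 0.88. Birc2 and Otulin fell, with log2 fold changes of -0.51 and -0.55, and Rbck1 did not pass, with 0.11.

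Of the kinases between receptor and NF-kB, 6 of 10 rose and 1 fell. Map3k8 had a log2 fold change of 0.83, Map3k5 of 0.70 and Tab2, the highest of the list, of 0.22, while Map3k14, the noncanonical kinase NIK, fell by 0.75 (adjusted p = 0.000112). Map3k7 and Tab1 did not pass, with -0.51 and 0.10. A single library of the clone was low for Map3k7, which was at 19.6, 16.0 and 18.6 FPKM in WT and 17.2, 6.27 and 18.3 FPKM in C2C12 Myod1-/- libraries. Death effectors that rose included Mlkl, Bid and Cflar. Mlkl, the executioner of necroptosis, rose from 13.5, 12.7 and 13.6 to 48.8, 49.9 and 49.98 FPKM (log2 fold change 1.90, adjusted p = 3.22e-07), Bid, a link from caspase-8 to mitochondria, had 1.36 and Cflar, the inhibitor of caspase-8 known as c-FLIP, had 1.08. Thus a promoter of death and an inhibitor of it were both higher. Among genes of ligand processing, 4 of 6 rose and 1 fell. Rhbdf2, an iRhom that carries the TNF sheddase ADAM17 to the surface, had 1.16, the protease gene Furin had 1.15, and Timp3, an inhibitor of that sheddase, fell from 34.1, 31.0 and 33.5 to 16.6, 17.3 and 17.8 FPKM (log2 fold change -0.93, adjusted p = 1.52e-05). Adam10, the highest of them, did not pass (-0.05). The 3 genes of these lists under the filter, named after their values were seen, were Ripk3, the kinase that activates MLKL, at 0.459 to 0.793 FPKM in WT and 0 to 0.0456 FPKM in C2C12 Myod1-/- libraries, and Traf1 and Birc3, both known NF-kB targets. Traf1 was at 0.0190 to 0.0702 FPKM in WT and 0.398 to 0.431 FPKM in the clone, and Birc3 at 0.0109 to 0.0680 FPKM in WT and 0.328 to 0.561 FPKM in the clone. Ripk3 was thus lower where Mlkl was higher.

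**Figure D4:**
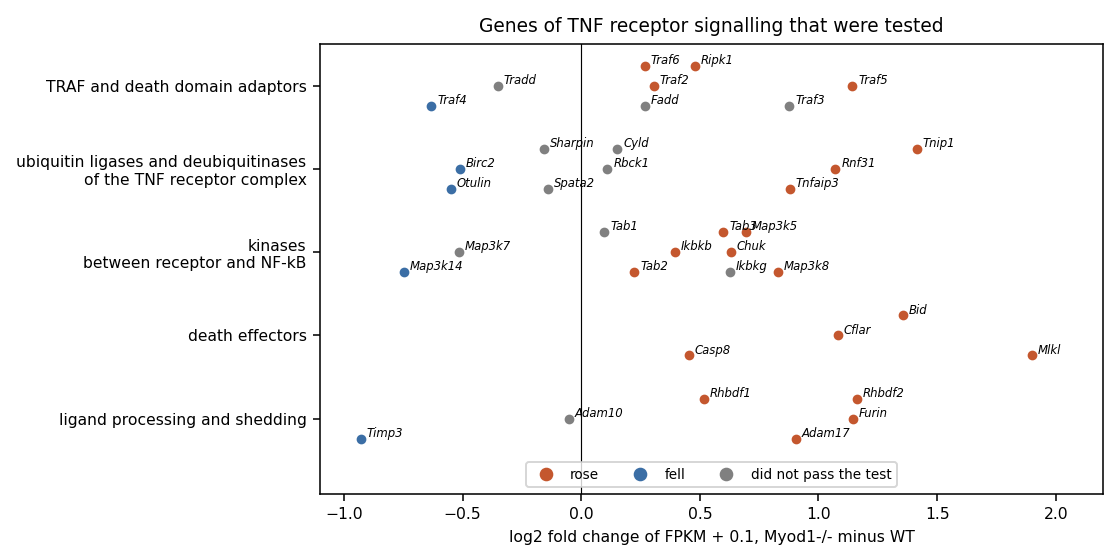
Log2 fold change of FPKM + 0.1, C2C12 Myod1-/- minus WT, for the 37 tested genes of 5 lists of TNF receptor signalling, 1 point a gene, colored by the test. Mlkl at 1.90 and Tnip1 at 1.41 lie farthest to the right and Timp3 at -0.93 farthest to the left.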

How the data were processed

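Total RNA without rRNA was sequenced from 3 libraries of each genotype. The authors aligned reads to GRCm38 with HISAT2 or TopHat and deposited FPKM from StringTie. They are shares of a library, and the files hold no counts. The submitters' notes also name bcl2fastq, fastp and FastQC. Versions, annotation and use of strand are not given in the sources used here. The 6 columns were assigned through the study's supplementary table of DEGs, which carries genotype and replicate headings: 3200 of 3200 shared genes matched in all 6 values (relative tolerance 0.001). Transcript columns were assigned by the same names.

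Genes reaching a mean of 0.5 FPKM were fitted by genotype on log2(FPKM + 0.1) in R 4.3.3 with limma 3.58.1 and an intensity trend, with Benjamini-Hochberg adjustment over 14045 genes. All 43 members were in GENCODE M21, 38 of them at the same position. Python 3.11.15, pandas 2.3.3 and matplotlib 3.10.9 were used. On simulated data of that size, 75% of genes changed by 1 and 94% of those changed by 2 on the log2 scale were recovered, and 4 unchanged genes were called. Every tested member, members with a library at 0.1 FPKM or more and, from each other list, up to 3 genes by mean and up to 3 by change are named. Members, lists and motifs were chosen with earlier results of these data known. Of the lists of other genes, 3 genes are not reported here and were left out of the counts of their lists. Alternatives were other pseudocounts, filters, scalings and variance models, a replicate block, and each replicate left out. Of the low values, 38.8% to 42.8% were whole multiples of a common step per library (within 0.05 of a step), so that no whole reads were recovered and depth is known only in relative terms.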

Additional observations from a re-analysis of the deposited data

How the results depend on the processing

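Under the 14 alternatives 12 to 15 members rose, 3 to 5 fell and 8 to 13 were called DEG, and no member changed direction among the called. Tnfsf10 and Tnfrsf11b were no longer DEGs with a pseudocount of 1, at log2 fold changes of 0.85 and -0.95. Of the members that rose or fell, those other than Tnfsfm13 lost the adjusted call only where they were not tested: Tnfsf10 and Tnfrsf11b with a filter at 1 FPKM, and Tnfsf10 without any 1 Myod1-/- replicate. Tnfsf15 passed the filter and fell without any 1 Myod1-/- replicate. Its mean over 3 libraries was 0.802 FPKM in WT and 0.127 FPKM in Myod1-/- cells. It thus passed through WT only and had to differ. Tnfsf13 passed with no intensity trend (adjusted p = 0.0371). Tnfsfm13 lost its call with no filter (adjusted p = 0.0702), quantile normalization (0.056), median scaling (0.0535) and no intensity trend (0.0533). Replicate numbers did not pair the libraries, since the deviations of same-numbered libraries correlated at -0.103, -0.138 and -0.029. With the replicate block 13 members rose and 3 fell, and Tnfsfm13 had an adjusted p of 0.0858. The median log2 fold change of all genes was -0.05 as reported, 0.03 with quantile normalization and 0.01 with median scaling, which moved the share of higher genes among the called from 45.6% to 51.5% and 51.0%. FPKM without counts give no counting error, so members near 0 are listed values only.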
